A study of Mus musculus with 2 samples.

Results

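The genes described here encode the glycolytic pathway and the response to low oxygen. They were the rows of the deposited matrix that carried 1 of 46 listed symbols, which gave 47 rows of 32285 genes in all because the symbol Aldoa stands on 2 rows. The list was not drawn from the values of this series by its rule, but it was chosen with earlier results of these data known. Single cells were taken from fetal lungs of wild-type mice on gestation day 18. From gestation day 12 the mothers, 9 weeks old when obtained, drank water with the synthetic glucocorticoid dexamethasone (DEX, 1.3 µg/ml, dissolved in PBS) or with PBS alone. Each treatment had 2 mothers, and the lungs of a litter were pooled (8 and 9 fetuses in the litters named DEX-1 and DEX-2, 5 and 8 in PBS-1 and PBS-2), so that the litter was the replicate in every test (n = 2 per treatment). All cells were sorted alive as CD45+ Lin- ST2+, a gate meant for group 2 innate lymphoid cells (ILC2s), tissue-resident lymphocytes that make type 2 cytokines, and the hashtagged cells of all 4 litters went into 1 expression library.

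Glycolysis splits glucose into pyruvate in the cytosol and yields ATP without oxygen. Lactate dehydrogenase then turns pyruvate into lactate, which leaves the cell through monocarboxylate transporters. When oxygen falls, the prolyl hydroxylases of the EGLN family no longer mark the alpha subunits of hypoxia-inducible factor (HIF) for destruction by the VHL ligase, and HIF, paired with Arnt, binds a short core motif near its target genes. Its targets include some glucose transporters and many glycolytic enzymes, as well as genes of vessel growth, mitophagy, lipid storage and collagen modification. The fetal lung develops at low oxygen tension, and activated lymphocytes raise glycolysis when they divide.

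The promoters of 3 of the 4 genes that passed the test between DEX and PBS litters in ILC2-like cells are shown as a description. Each run is the 250 bases before a RefSeq transcription start on GRCm38.p6, read 5′ to 3′ on the gene's strand. Capitals mark the HIF core, ACGTG or GCGTG on either strand, and ACGTG also lies within the E-box CACGTG.
Egln3, chr12:54203875-54204124, minus strand: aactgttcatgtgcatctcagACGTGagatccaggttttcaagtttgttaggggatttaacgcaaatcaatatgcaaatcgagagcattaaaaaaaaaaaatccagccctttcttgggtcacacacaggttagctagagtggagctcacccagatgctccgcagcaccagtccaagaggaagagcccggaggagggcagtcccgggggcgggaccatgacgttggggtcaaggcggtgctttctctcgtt
Ldha, chr7:46845554-46845803, plus strand, the first of 2 listed starts: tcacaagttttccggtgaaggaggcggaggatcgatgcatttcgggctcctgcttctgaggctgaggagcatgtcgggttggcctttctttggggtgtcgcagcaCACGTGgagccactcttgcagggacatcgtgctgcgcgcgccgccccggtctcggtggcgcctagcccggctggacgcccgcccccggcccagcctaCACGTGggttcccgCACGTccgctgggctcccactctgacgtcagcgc
Pgam1, chr19:41911621-41911870, plus strand: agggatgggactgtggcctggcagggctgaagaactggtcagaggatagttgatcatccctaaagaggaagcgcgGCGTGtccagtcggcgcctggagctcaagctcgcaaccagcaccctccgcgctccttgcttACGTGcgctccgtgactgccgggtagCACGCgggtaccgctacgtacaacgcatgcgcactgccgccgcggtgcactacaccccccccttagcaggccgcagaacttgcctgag
Egln3 itself spans chr12:54178981-54203860, Ldha chr7:46841475-46855627 and Pgam1 chr19:41911923-41918660 (GENCODE M21, GRCm38), and none of the 3 overlaps another annotated gene. The Egln3 window held 1 core match, the Ldha window 5, counting overlapping letters on both strands, and the Pgam1 window 3. The fourth gene, Slc2a1 (chr4:119108711-119137983, plus strand, GRCm38), had 2 core matches in its window. The core was found in 76.7% of the 60 promoters listed for the 40 genes that matched the table, against 38.6% of all 32851 promoters, and 36 of these 40 genes had it at 1 start or more. AGAACA, a short motif bound by the glucocorticoid receptor and searched on both strands, was in 15% of the promoters of these genes and 16.1% of all, and in none of the 4 windows just named. The list was chosen for glycolysis and the response to low oxygen, so it was bound to hold known HIF targets. All promoters were not matched to these in base makeup, so the 2 shares of the core are a description and no evidence from these data. Only the 250 bases before a start were searched, and what regulates these genes was not tested. A match in letters is a description and not a bound site.

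After hashtags were used to assign cells to litters, 7268 singlets remained, 1737 to 1890 per litter, with a median of 8025.5 unique molecular identifiers (UMIs, each 1 captured RNA molecule) per cell. The gate was not pure. By marker genes, 2078 singlets (28.59%) were ILC2-like, 2323 (31.96%) were mast-like and 493 were basophil-like. Smaller numbers were epithelial-like (445), endothelial-like (284), macrophage or monocyte-like (250), B-like (199) and mesenchymal-like (156), and 1040 (14.31%) were left unnamed. The genes described here were kept out of the clustering, so that the classes were not built from them. The ILC2-like cells held all 13 ILC2 markers and fell into a cluster led by Hilpda and Calca (965 cells), a cluster led by Thy1 and S100a4 (1085 cells) and a small remaining cluster (28 cells). Levels across classes are given as CPM, the UMIs of a gene per 1000000 UMIs of that class in that litter, in the order DEX-1, DEX-2, PBS-1, PBS-2. A 5′ kit counts 1 end of each molecule, so CPM was not divided by gene length.

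In levels across classes, 26 of the 47 rows had a class in which every litter lay above every litter of all other classes. This is a description, because classes come from the same cells. The share over all genes was not worked out, so the count does not set these genes apart from others. That class was macrophage or monocyte-like in 6 rows, ILC2-like in 3 and endothelial-like in 2. Mast-like, basophil-like and epithelial-like cells each led in 5. With a finer clustering (Leiden resolution 1.0) the count was 16, and the top class was the same in 40 of 47.

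**Figure D1:**
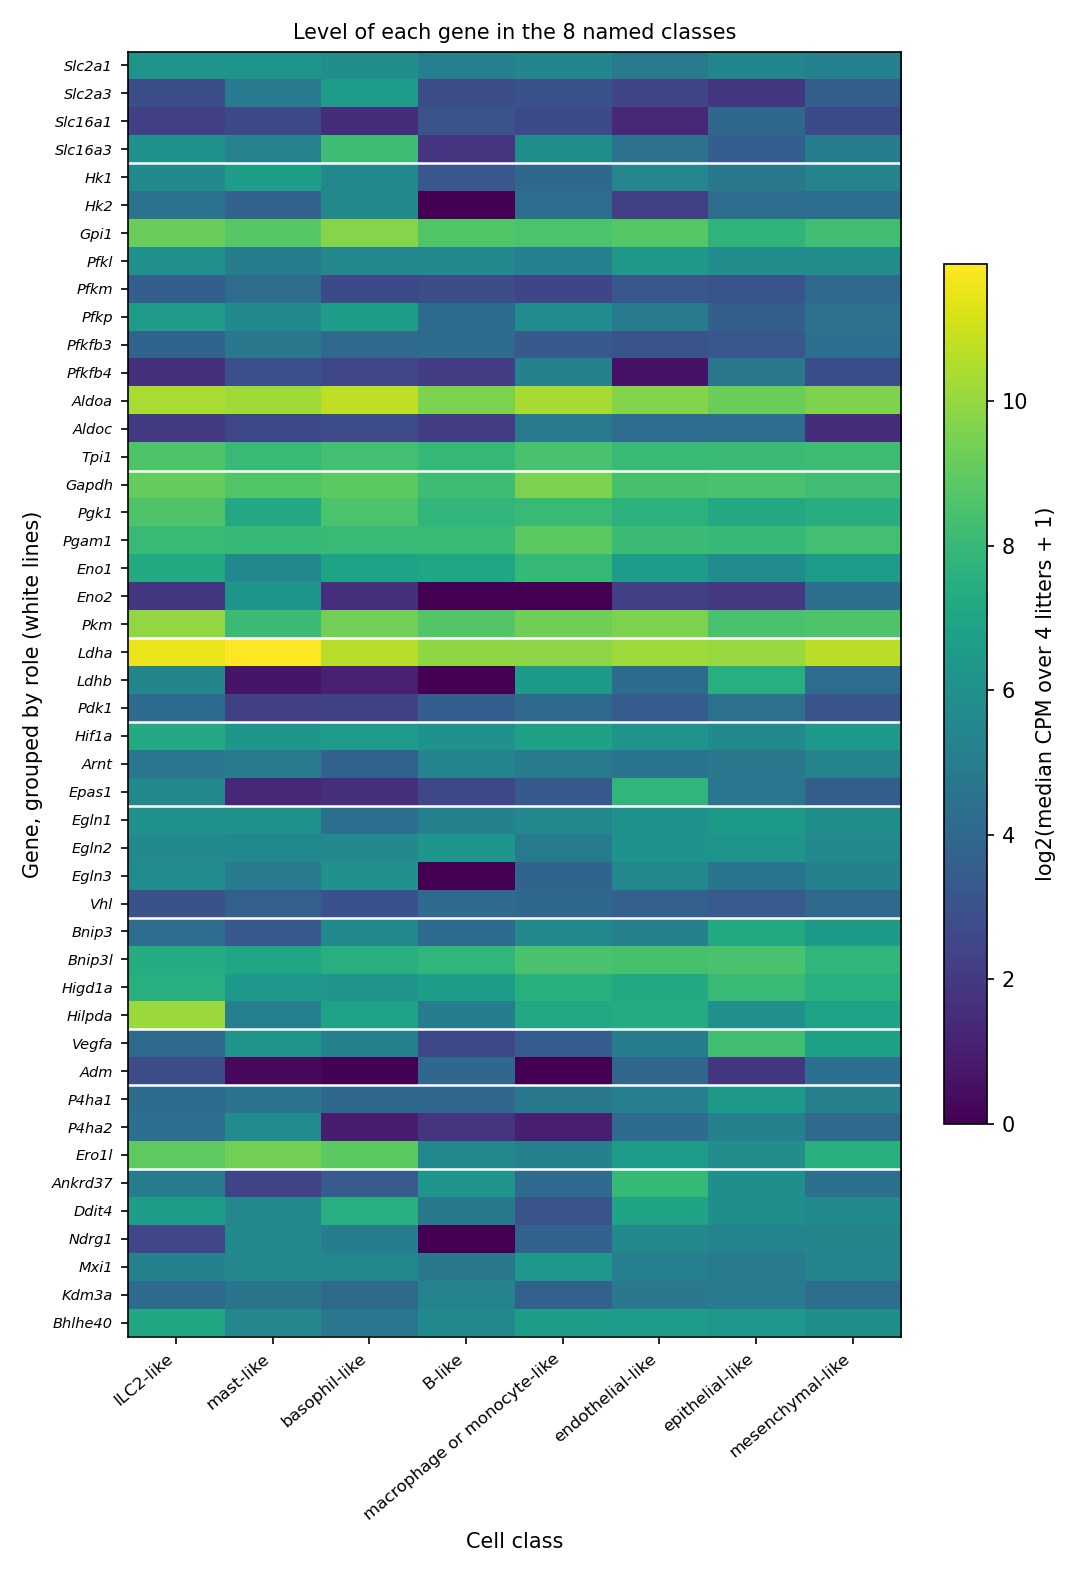
Each row is 1 of the 46 genes, grouped by role, and each column 1 of 8 classes; colour is log2 of the median CPM over 4 litters plus 1. Ldha and Aldoa are bright in all classes, Hilpda stands out in ILC2-like cells and Eno2 in mast-like cells.

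Among the transporters, Slc2a3, a high-affinity glucose carrier, was highest in basophil-like cells at 74.29 to 112.2 CPM, against 28.06 to 36.26 in mast-like and 4.989 to 6.811 in ILC2-like cells. Slc2a1, the carrier found on most cells, did not separate ILC2-like (57.57 to 80.42 CPM) from mast-like cells (62.95 to 78.95 CPM). Slc16a3, which exports lactate, was also highest in basophil-like cells (222.9 to 385.7 CPM), with 64.28 to 96.96 CPM in ILC2-like cells. Basophil-like cells thus held the top place for both a glucose importer and a lactate exporter.

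Among the early enzymes, Hk1, a hexokinase bound to mitochondria, was at 91.29 to 99.69 CPM in mast-like cells and 49.43 to 56.37 in ILC2-like cells. Its paralog Hk2 was highest in basophil-like cells (38.93 to 64.46 CPM), and so was Gpi1, which isomerises glucose 6-phosphate (806.2 to 946.2 CPM). The litter ranges of Hk1 and Gpi1 did not overlap between the top class and any other.

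In the later steps, the classes differed by their enolase. Eno2 (chr6:124760053-124769673, minus strand, GRCm38), the enolase known from neurons, was at 86.15, 66.24, 75.43 and 80.45 CPM in mast-like cells, against 5.092, 2.881, 1.778 and 2.495 in ILC2-like cells. Mesenchymal-like cells came next at 16.82 to 27.98 CPM, and B-like cells had 0 Eno2 UMIs in all 4 litters. Eno1, the common form, ranged from 132 to 168.2 CPM in ILC2-like and from 39.23 to 48.2 CPM in mast-like cells, with the highest level in macrophage or monocyte-like cells (212.3 to 267.7 CPM). Among Eno1 and Eno2 UMIs together, Eno2 took 59.33% to 67.22% in mast-like cells and 1.074% to 2.938% in ILC2-like cells. Enolase was the 1 family of 12 whose major paralog differed between ILC2-like and mast-like cells in all litters. Eno1 has a near-identical annotated copy, Eno1b, and reads that match both equally are not counted for either, so that the level of Eno1 is uncertain and the share of Eno2 may be overstated. Eno1b itself had 38.95 to 56.88 CPM in ILC2-like and 11.74 to 16.45 CPM in mast-like cells, and with it added to the family Eno2 still took 53.68% to 60.45% in mast-like cells and 0.7991% to 2.264% in ILC2-like cells. Of cells thinned to 2000 UMIs, 13.66% of mast-like cells had an Eno2 UMI (34.44% unthinned, median depth 6328 UMIs), against 0.4386% of ILC2-like cells (2.406% unthinned, median depth 7186). Among B-like cells, at a median depth of 3528 UMIs, the share was 0 of 185, which allows a share of up to 1.62%. Thinning left out 26 ILC2-like, 244 mast-like and 14 B-like cells with fewer UMIs.

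Pkm, the last enzyme of the pathway, was at 1163, 921.5, 1088 and 873.3 CPM in ILC2-like cells and at 251 to 306.6 CPM in mast-like cells. Every litter of ILC2-like cells was above every litter of the other classes. The lactate dehydrogenase A chain, Ldha, favours lactate formation and was highest in mast-like cells, at 4434, 3812, 3803 and 3609 CPM. ILC2-like cells followed at 3433, 3281, 2696 and 2672 CPM, and no litter of another class exceeded 2129 CPM. Ldhb, the B chain, was at 177.5 to 182.3 CPM in epithelial-like cells, 79.21 to 107 in macrophage or monocyte-like cells and 46.89, 42.17, 41.9 and 42.41 in ILC2-like cells. In mast-like cells it was at 2.057, 0.6646, 0.2836 and 0.4966 CPM, which rested on 8, 3, 1 and 2 UMIs. Free RNA from epithelial cells, estimated from the surfactant gene Sftpc, came to 20.6% to 204.2% of that mast-like level and to 0.8857% to 1.264% of the ILC2-like level, so the mast-like level is not told apart from background.

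**Figure D2:**
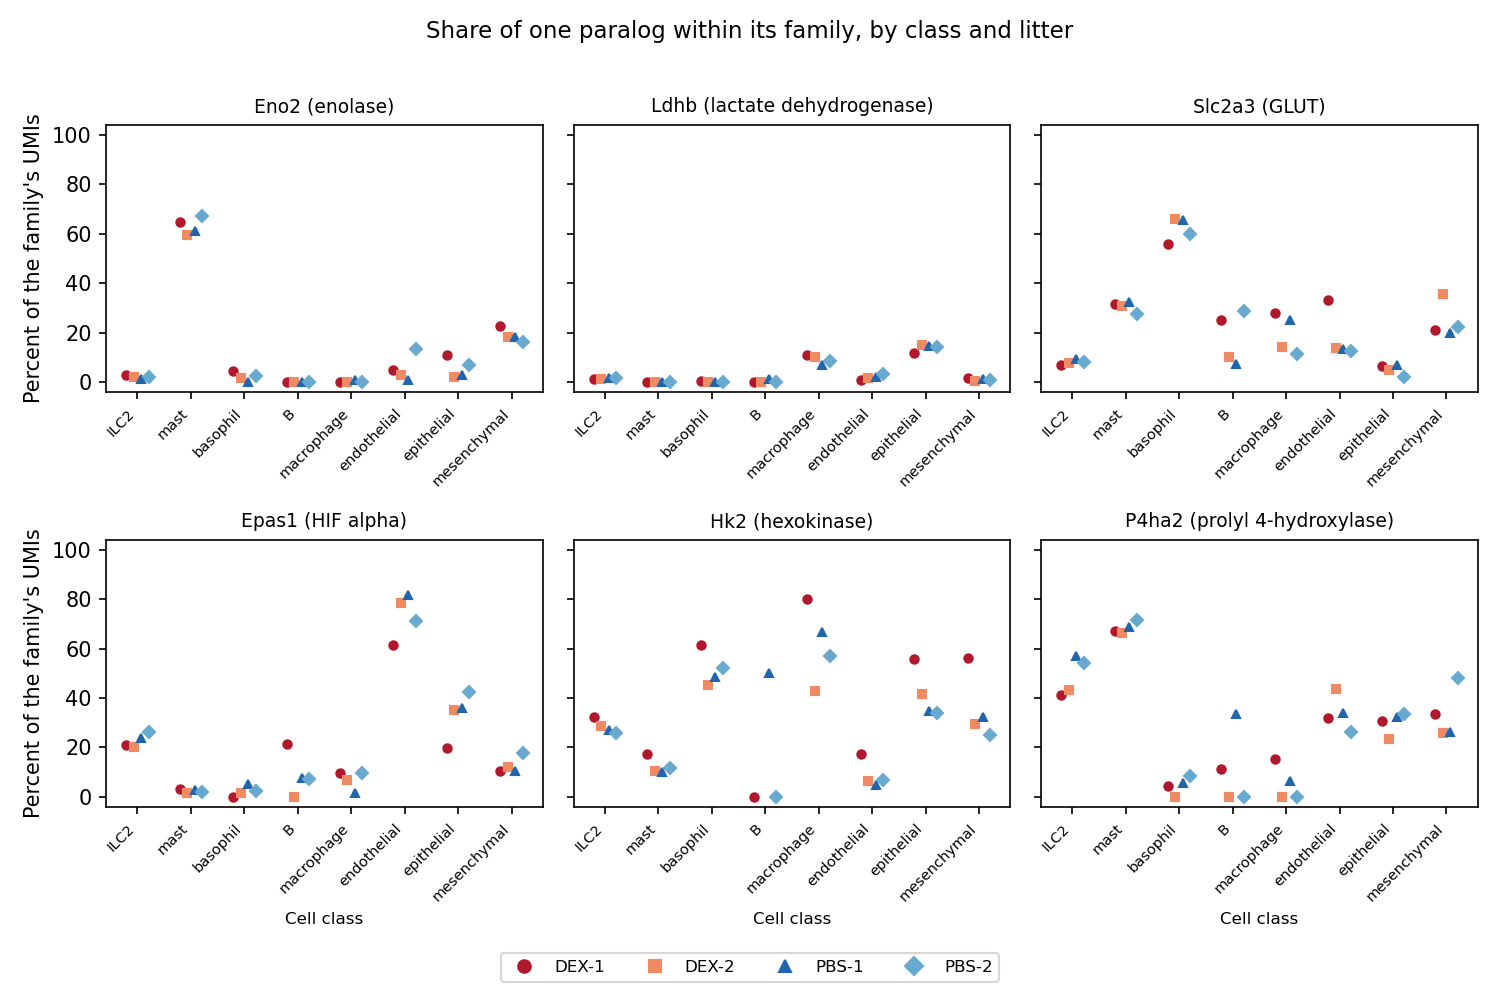
Each panel shows the percent of a family's UMIs taken by 1 paralog (y axis) in 8 classes (x axis), 1 point per litter. Eno2 is above 59% in every mast-like litter and under 3% in every ILC2-like litter; shares in B-like cells rest on few UMIs.

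Of the oxygen-sensing genes, Hif1a, the widely used HIF alpha subunit, was highest in ILC2-like cells at 160, 178.4, 147.5 and 145.3 CPM, against 59.26 to 76.97 in mast-like cells. Epas1, the alpha subunit known from vessels, was highest in endothelial-like cells (118.3 to 242.7 CPM). ILC2-like cells had 42.22 to 51.23 CPM. Mast-like cells had 1.108 to 2.314 CPM, on 9, 5, 6 and 6 UMIs, and B-like cells had 3, 0, 1 and 1 UMIs. Free RNA from endothelial cells was not estimated, so the mast-like level is not told apart from background. Epas1 took 61.41% to 81.71% of the UMIs of the 2 subunits in endothelial-like cells and 20.07% to 26.07% in ILC2-like cells. Egln3, the hydroxylase that HIF itself induces, had a UMI in 9.162% of ILC2-like cells after thinning (25.17% before), 10.91% of basophil-like cells, 4.81% of mast-like cells and 0.5405% of B-like cells.

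Hilpda, which blocks triglyceride breakdown at lipid droplets (chr6:29272488-29275446, plus strand, GRCm38), was highest in ILC2-like cells, which had 1075, 1103, 1360 and 1053 CPM. The next class, endothelial-like cells, had 110.8 to 187.5 CPM, and mast-like cells had 23.7 to 45.52 CPM, a ratio of medians of 31.76 between ILC2-like and mast-like cells. The Calca-led ILC2-like cluster had 1703 to 2169 CPM and the Thy1-led cluster 617 to 788.5 CPM, both above all other classes. After thinning, 58.38% of ILC2-like cells had a Hilpda UMI (76.9% before), against 4.324% of B-like and 4.858% of mast-like cells. Among targets with a role outside metabolism, Vegfa, the main vessel growth factor, was highest in epithelial-like cells (255.6 to 322 CPM), with 58.38 to 86.17 in mast-like and 13.82 to 23.11 in ILC2-like cells. The collagen prolyl hydroxylase P4ha2 was highest in mast-like cells (42.75 to 57.09 CPM), as was the disulfide-forming oxidase Ero1l (611 to 773.8 CPM, against 486.2 to 512.6 in ILC2-like cells). Ndrg1, a stress-induced gene, was at 36.33 to 53.23 CPM in mast-like and 3.262 to 6.549 CPM in ILC2-like cells, and at 89.01 to 167.2 CPM in the mast-like cluster led by Mrgprb1. Ankrd37, a small HIF-induced ankyrin protein, was highest in endothelial-like cells at 199.1 to 273.2 CPM.

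Set against each other, 21 of the 47 rows (44.68%) were higher in every ILC2-like litter than in any mast-like litter, and 12 (25.53%) were higher in every mast-like litter. Of 14524 genes with at least 10 UMIs in both classes together, the shares were 32.9% and 24.07%. The median in ILC2-like cells was above that in mast-like cells by a ratio of 7.57 for Ankrd37, 4.571 for Pdk1 and 3.664 for Pkm. At the other end were ratios of 0.03449 for Eno2, 0.09707 for Ndrg1, 0.2062 for Slc2a3 and 0.2234 for Vegfa. The 2 classes thus differed gene by gene and not in 1 direction over the pathway.

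The next question was whether these genes differed between litters of DEX-treated and PBS-treated mothers. In ILC2-like cells, 46 of the 47 rows passed the filter on low counts and 4 were called, all higher in DEX litters: the oxygen sensor Egln3, Ldha, the phosphoglycerate mutase Pgam1 and the glucose carrier Slc2a1. Across all 10647 genes tested, 2.45% were called, and 1.16% were called higher. Values in the tests are CPM after TMM scaling, and p-values come from edgeR's quasi-likelihood test with Benjamini-Hochberg adjustment over all genes tested. Of the listed rows, 30 had a positive log2 fold change, with a median of 0.09 against 0.00 over all genes. Rows with both DEX litters above both PBS litters numbered 13 (background 21.3%), and rows with both below numbered 4 (background 21.2%), so that a separation of the 4 litters alone was frequent among all genes.

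Egln3 was at 69.5 and 69.6 CPM in the DEX litters and at 38.3 and 39.0 CPM in the PBS litters. The difference, 0.84 ± 0.11 (log2, SE, n = 2 per group), exceeded the spread between litters (edgeR adjusted p = 0.000516). Ldha was at 3420 and 3339 CPM against 2679 and 2691 CPM, a difference of 0.33 ± 0.06 (edgeR adjusted p = 0.0128). Pgam1, which moves the phosphate of phosphoglycerate, was at 333.3 and 294.1 CPM against 245.2 and 230.1 CPM, a difference of 0.40 ± 0.08 (edgeR adjusted p = 0.0165). Slc2a1 was at 79.7 and 81.9 CPM against 61.6 and 58.0 CPM, a difference of 0.44 ± 0.10 (edgeR adjusted p = 0.0278). In all 4 genes both DEX litters were above both PBS litters. Ldha, Egln3 and Pgam1 are also on a gene list that the study itself drew up from these cells, so their presence there is not independent evidence of direction. Slc2a1 overlaps Gm12867 and Gm12868 on the other strand.

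**Figure D3:**
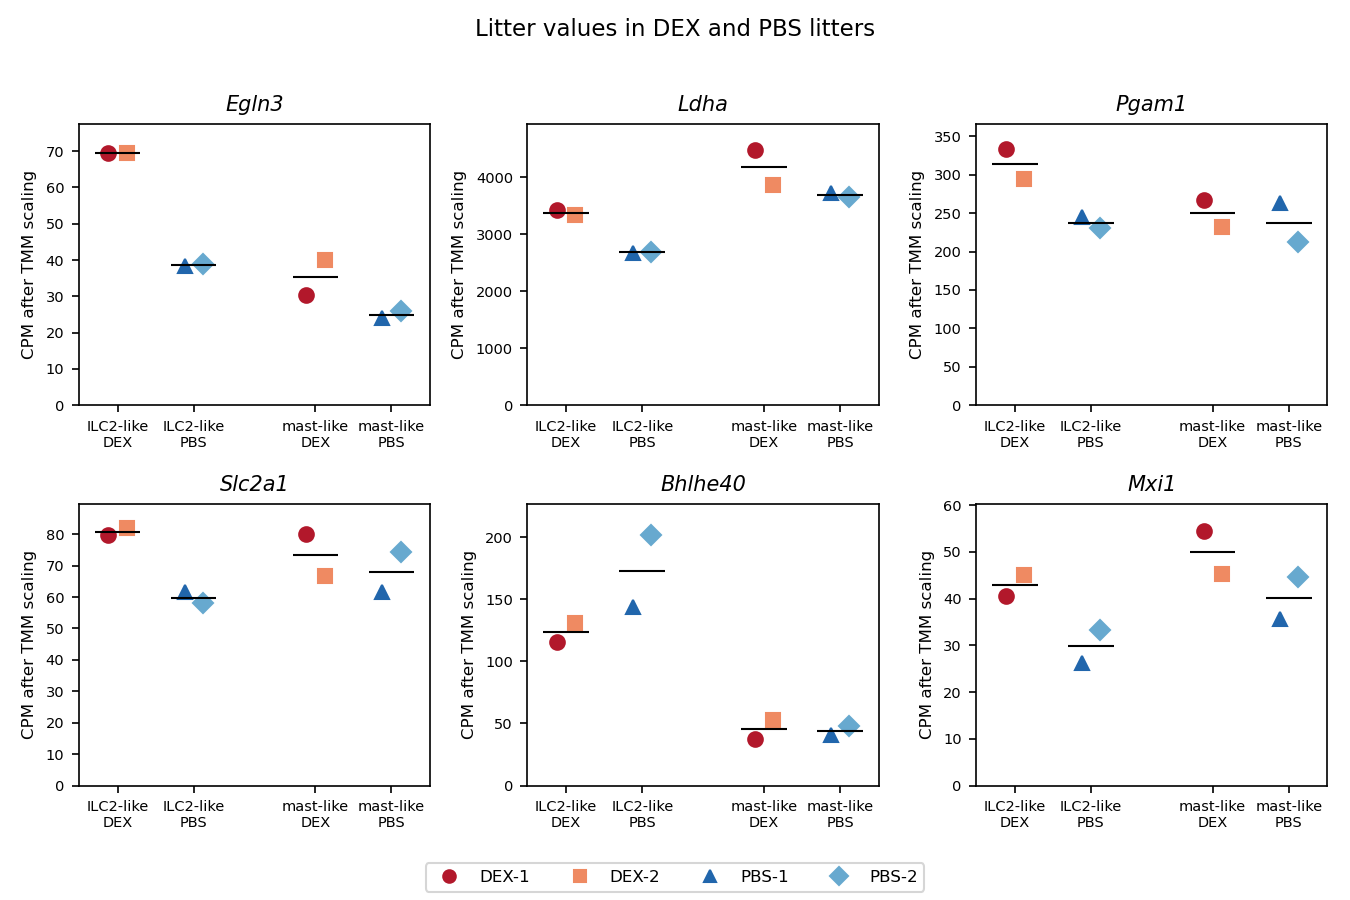
CPM after TMM scaling (y axis, from 0) for 6 genes in ILC2-like and mast-like cells of 2 DEX and 2 PBS litters; points are litters and bars are means. In ILC2-like cells the DEX points of Egln3, Ldha, Pgam1 and Slc2a1 lie above the PBS points; Bhlhe40 lies lower and was not called.

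Below the threshold, Bhlhe40, a HIF-induced repressor, was at 115.4 and 131.2 CPM in DEX litters and 144.1 and 201.9 CPM in PBS litters (-0.50 ± 0.13, edgeR adjusted p = 0.0601). It was called lower in DEX litters with RLE size factors, without a filter on low genes, at a minimum count of 50, with the hashtag ratio rule, without DEX-2 and without PBS-1. Mxi1, an antagonist of Myc, differed by 0.51 ± 0.15 (edgeR adjusted p = 0.0988). The glycolytic enzymes with the highest levels did not pass. For instance, Aldoa differed by 0.18 ± 0.13 and Pkm by 0.10 ± 0.10. Their litter values were 1606 and 1226 against 1448 and 1063 CPM for Aldoa and 1159 and 938 against 1081 and 879 CPM for Pkm, so that DEX-1 and PBS-1 were each above the other litter of their treatment. Among the collagen prolyl hydroxylases, neither of which was called alone, P4ha2 took 41.07% and 43.41% of the UMIs of the pair in DEX litters and 57.14% and 54.14% in PBS litters. This family was picked from 12, and the shares were not tested. Of all genes tested, 21.3% had both DEX litters above both PBS litters and 21.2% had both below, so a difference in isoform use is not shown. Hilpda, at 1071 and 1123 CPM against 1351 and 1060 CPM, overlapped between treatments. Of 51 other genes of glycolysis and hypoxia tested, Errfi1, a feedback inhibitor of EGF receptor signalling (0.75 ± 0.12, edgeR adjusted p = 0.00366), and Plin2, a lipid droplet coat protein (0.56 ± 0.13, edgeR adjusted p = 0.0442), were higher in DEX litters. Plod2, a collagen lysyl hydroxylase, was lower (-0.58 ± 0.10, edgeR adjusted p = 0.0076). Errfi1 and Plin2 are on the study's own list too.

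**Figure D4:**
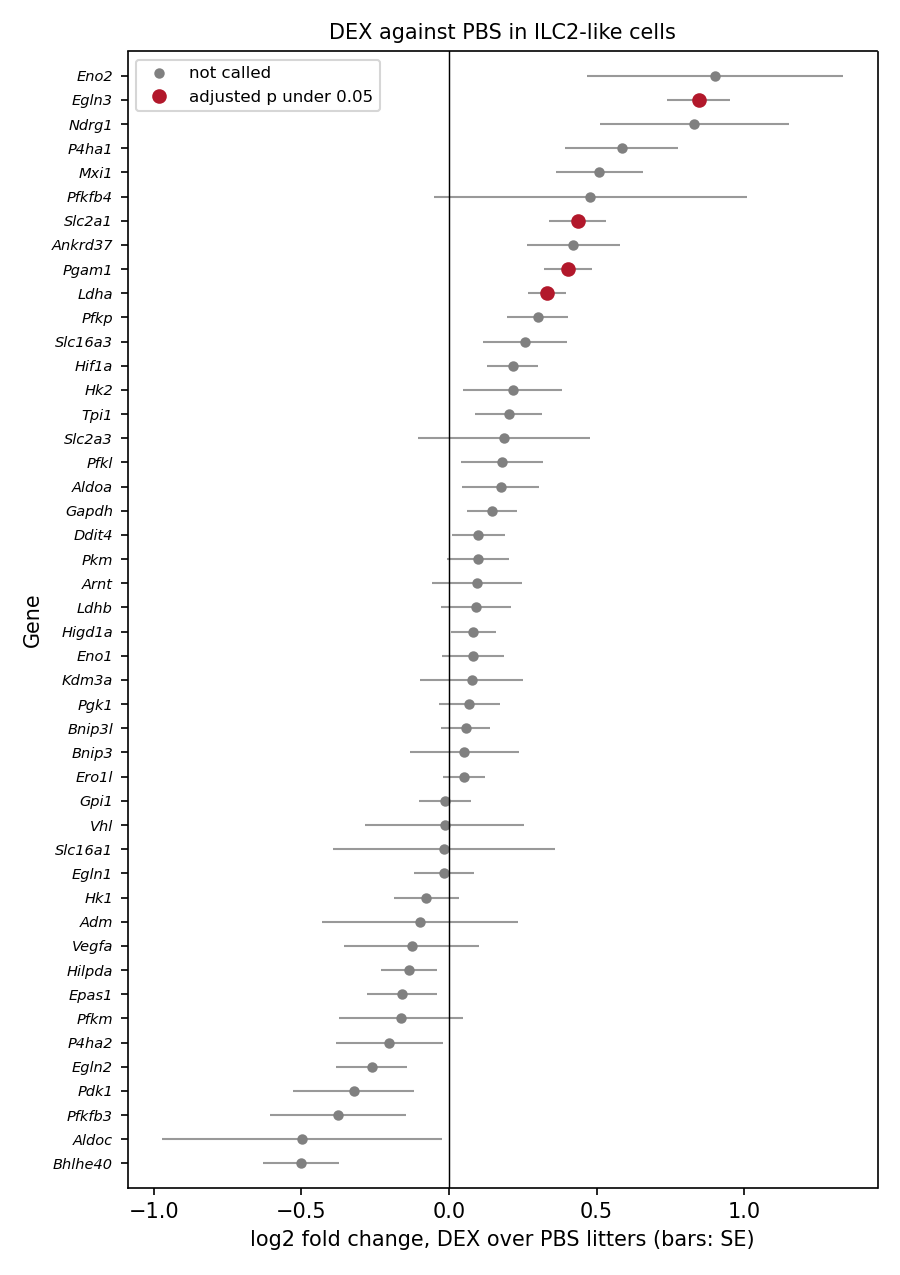
Log2 fold change of DEX over PBS litters (x axis, bars are SE) for the 46 tested rows in ILC2-like cells, ordered by size. The 4 called genes, in red, lie between 0.33 and 0.84, and 16 rows lie below 0.

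The calls rested on few litters. Without DEX-1 there were 3 called rows (Ldha and Pgam1 lost), without DEX-2 9 (Slc2a1 lost), without PBS-1 7 and without PBS-2 6 (Slc2a1 lost), and Egln3 was called in each case. The makeup of the ILC2-like class differed between litters, also between the PBS litters, and a difference with treatment was not tested. Subsets of its cells were tested alone, mostly by choices made after the data were seen. The Thy1-led cluster made up 56.06% and 56.58% of ILC2-like cells in DEX litters and 43.99% and 52.08% in PBS litters. Within that cluster 2 rows were called (background 1.13%), Egln3 at 0.73 (edgeR adjusted p = 0.00477) and Slc2a1 at 0.65 (edgeR adjusted p = 0.029), while Ldha was at 0.20 (edgeR adjusted p = 0.0637). Within the Calca-led cluster 2 were called (background 0.709%), Egln3 at 1.14 (edgeR adjusted p = 0.0124) and Ldha at 0.61 (edgeR adjusted p = 0.0403). Among resting ILC2-like cells the same pair was called (background 1.24%), with Egln3 at 1.25 and Ldha at 0.56. Among mitotic cells 0 of 39 rows were called by edgeR (background 0.72%), with Egln3 at 0.77 (edgeR adjusted p = 0.139). Among these cells Pgam1 was at 0.45 (edgeR adjusted p = 0.0795) and Slc2a1 at 0.49 (edgeR adjusted p = 0.4), both no smaller than in all ILC2-like cells, and Ldha was at 0.16 (edgeR adjusted p = 0.341). Pgam1 was at 0.41 in resting cells (edgeR adjusted p = 0.162), 0.33 in the Thy1-led cluster (edgeR adjusted p = 0.0947) and 0.41 in the Calca-led cluster (edgeR adjusted p = 0.188), without a call in any of them.

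Sums of marker genes of several cell types differed between treatments in ILC2-like cells. Of all genes tested there, 21.3% had both DEX litters above both PBS litters and 21.2% had both below. The 9 mesenchymal markers came to 54.31 and 58.15 CPM in DEX against 34.28 and 33.96 CPM in PBS litters, with Lum at 0 in all litters and Dcn at 0 in 3 of them. Most of that sum was Mfap4 (20.37 and 21.22 against 11.68 and 10.55 CPM) and Fn1 (22.28 and 22.79 against 15.49 and 16.5 CPM). Col1a1 and Pdgfra overlapped between treatments. Of the endothelial markers, Pecam1 hardly differed (14.43 and 14.93 against 13.97 and 14.2 CPM). The 9 endothelial markers came to 57.07 and 61.82 against 44.95 and 46.44 CPM, and the 10 epithelial markers to 299.8 and 296.3 against 363.1 and 350.2 CPM. A list of 19 dissociation-induced genes came to 19210 and 18440 against 19870 and 19790 CPM. The 8 markers shared by basophils and mast cells came to 164.0 and 208.5 against 156.7 and 134.7 CPM, the 6 basophil markers to 119.9 and 107.7 against 157.7 and 143.5 CPM, and the 9 mast cell markers, whose litters overlapped, to 270.9 and 374.8 against 290.0 and 309.7 CPM. The 13 ILC2 markers themselves were at 4927 and 5198 against 5200 and 5494 CPM. Of the lists at lower levels, B cell and macrophage or monocyte markers were lower and dendritic and eosinophil markers higher in both DEX litters. The eosinophil sum was near the floor, at 0.6365 and 1.048 CPM in DEX litters and 0 in PBS litters. Erythroid markers were at 244.4 CPM in DEX-1 and at 10.22 to 15.24 CPM in the others. The part of these in the DEX result was not tested.

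In mast-like cells, 43 rows were tested and edgeR called 0, as it did for all 10503 genes (percent called 0, with 562 genes at an unadjusted p under 0.05, and DESeq2 calling 7 genes, none of them listed here). At an unadjusted p under 0.05 there were 2 rows. Pfkp, the platelet form of phosphofructokinase, was at 58.3 and 58.3 CPM in DEX litters and 38.4 and 36.1 CPM in PBS litters (0.65 ± 0.13, edgeR adjusted p = 0.421). Egln3 was at 30.5 and 40.1 against 23.9 and 25.8 CPM (0.51 ± 0.18, edgeR adjusted p = 0.822). Ldha differed by 0.18 ± 0.12, Pgam1 by 0.07 and Slc2a1 by 0.11. Rows without overlap between treatments were 11 higher (background 17.1%) and 4 lower (background 15.8%) in DEX litters.

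Whether the DEX difference itself differed between the classes was tested by an interaction. Of 11543 genes 0.156% were called, and 589 had an unadjusted p under 0.05. Of the 46 listed rows 0 were called, and 4 had an unadjusted p under 0.05. Of the listed rows limma-voom called 0, and DESeq2 called 0 but gave no adjusted p for 31 of the 46. For Egln3 the mast-like minus ILC2-like difference was -0.35 ± 0.20 (edgeR adjusted p = 0.965), and for Bhlhe40 it was 0.50 (edgeR adjusted p = 0.686). For the 4 genes called in ILC2-like cells, a difference between the classes was thus not shown.

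In the other 6 classes no listed row was called by edgeR, and DESeq2 and limma-voom called none. The shares of all genes called were 0.213% in B-like, 0.0092% in epithelial-like and 0.0511% in macrophage or monocyte-like cells, and 0 in basophil-like, endothelial-like and mesenchymal-like cells. Genes with an unadjusted p under 0.05 numbered 139, 583 and 395 in the former 3 classes. In the latter 3 they numbered 107, 316 and 240. Listed rows tested numbered 16 in B-like, 35 in basophil-like, 39 in endothelial-like, 43 in epithelial-like, 30 in macrophage or monocyte-like and 34 in mesenchymal-like cells, of which 1, 0, 3, 5, 1 and 3 had an unadjusted p under 0.05. The largest were Adm, a vasodilator peptide, in endothelial-like cells, at 18.1 and 35.1 CPM in DEX litters and 10.4 and 7.1 CPM in PBS litters (1.56 ± 0.47, edgeR adjusted p = 1) on 17, 28, 12 and 7 UMIs, and Egln3 in mesenchymal-like cells. Egln3 was at 51.3 and 60.9 CPM in DEX litters and 25.2 and 13.3 CPM in PBS litters (1.50 ± 0.40, edgeR adjusted p = 1), on 23, 30, 12 and 5 UMIs. In both genes the DEX litters were above the PBS litters. There were 28 to 46 mesenchymal-like cells per litter. Hilpda was called in epithelial-like cells when DEX-1 was left out, the 1 call in that class.

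The last question was how these genes differ between dividing and resting cells. Cells were called mitotic from 27 G2/M genes and resting from those and 26 S phase genes, none of which is listed here, in cells thinned to 2000 UMIs. Of the ILC2-like cells 412 were mitotic and 794 resting, and 67 lay near the limit, with 3 to 5 G2/M UMIs. Mitotic cells were deeper, with litter medians of 13449 to 14557 UMIs against 5554 to 6188. They also came from another cluster, since 95.15% of mitotic but 32.12% of resting cells lay in the Thy1-led cluster.

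In ILC2-like cells, 22 of the 41 rows tested were called. There were 8 higher in mitotic cells, a share no higher than that of all genes (background 22.2%), and 14 lower (background 19.4%). Pgam1, Pgk1, Tpi1, Gapdh and Pkm were among the higher rows and Hilpda, Hif1a and both glucose carriers among the lower, and the median log2 fold change was -0.19 against -0.03 over all genes. Among glycolytic enzymes, the phosphoglycerate mutase Pgam1 was at 190.2, 213.3, 150.5 and 153.6 CPM in resting and 430.4, 322.8, 284.2 and 270.7 CPM in mitotic cells (0.89 ± 0.08, edgeR adjusted p = 3.48e-10). Pgk1, the first ATP-yielding kinase, rose from 250.2, 268.9, 315.1 and 238.3 CPM to 524.9, 432.9, 501.1 and 412.6 CPM (0.81 ± 0.07). Tpi1, which interconverts the triose phosphates, was at 209.5 to 336.8 CPM in resting and 421.0 to 562.9 CPM in mitotic cells (0.74 ± 0.07). For Gapdh the ranges were 387.0 to 478.3 and 638.4 to 796.7 CPM (0.67 ± 0.06). In none of these enzymes did any mitotic litter reach down to a resting litter. Pkm (0.49), the lactate exporter Slc16a3 (0.48), the mitochondrial protein Higd1a (0.54) and the mTOR inhibitor Ddit4 (0.41) were also higher. Higd1a ranged from 133.1 to 149.8 CPM in resting and from 190.8 to 211.1 CPM in mitotic cells.

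The rows that were lower in mitotic cells were led by Hilpda. It was at 1714, 1503, 1927 and 1425 CPM in resting and 595.8, 634.3, 717.9 and 674.9 CPM in mitotic cells (-1.32 ± 0.06, edgeR adjusted p = 4.12e-17). Slc2a3 was at 6.7 to 10.0 CPM in resting and 3.4 to 4.9 CPM in mitotic cells (-1.12 ± 0.39), with no overlap. It rested on 6 mitotic UMIs in each litter, and its call was lost with DESeq2, without the litter block and without DEX-1 or PBS-2. P4ha2 was at 19.1 to 27.7 against 8.9 to 14.3 CPM (-0.88 ± 0.22), also without overlap. Litter ranges did overlap for Vegfa, at 10.9 to 27.9 against 7.3 to 13.1 CPM (-0.91 ± 0.26), and for P4ha1, at 18.9 to 29.6 against 4.9 to 28.0 CPM (-0.76 ± 0.25). The HIF subunits Arnt (-0.52) and Hif1a (-0.42), the mitophagy receptor Bnip3l (-0.45) and the glucose carrier Slc2a1 (-0.50) were lower too, as were Ero1l (-0.45), Mxi1 (-0.42), Pfkp (-0.35), Bhlhe40 (-0.32) and Ldha (-0.20). Transcripts of glucose carriers and glycolytic enzymes thus did not move as 1 group, with both carriers lower and 5 enzymes higher, and Pfkp and Ldha lower. Glucose uptake and the flux through glycolysis were not measured.

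**Figure D5:**
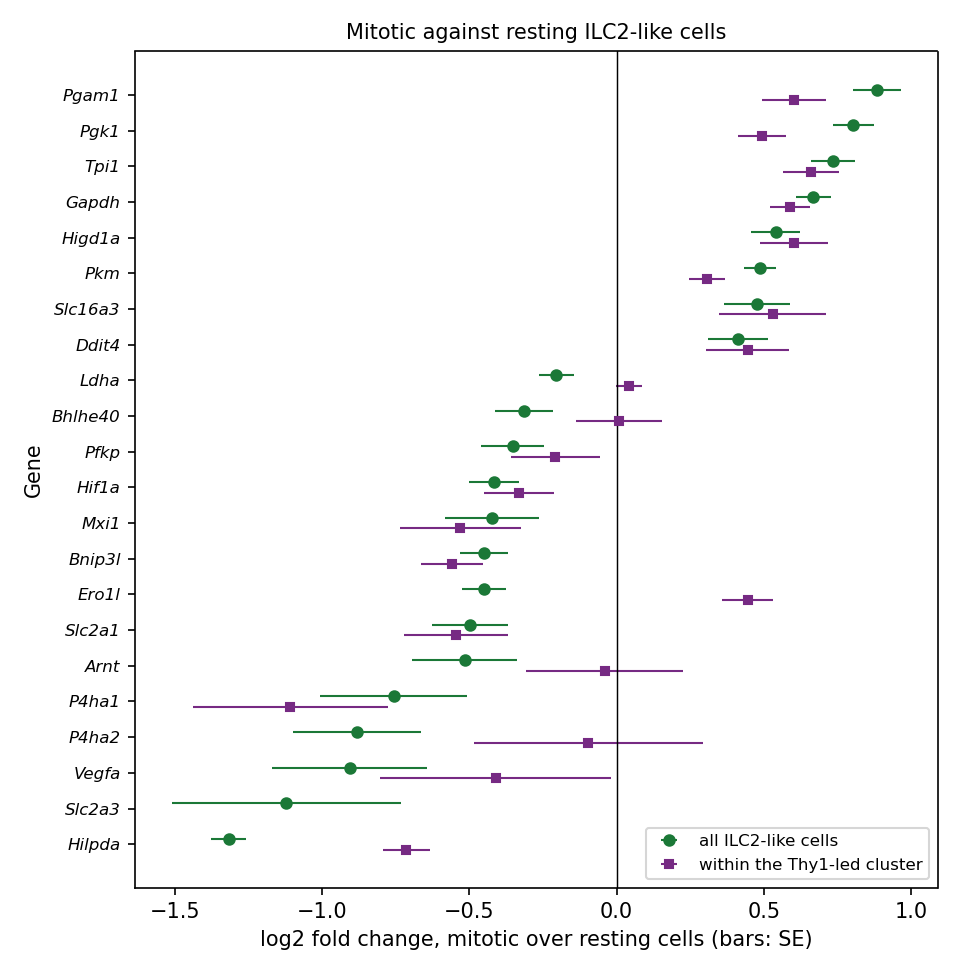
Log2 fold change of mitotic over resting cells (x axis, bars are SE) for the 22 called genes, in all ILC2-like cells (circles) and within the Thy1-led cluster (squares, Slc2a3 not tested there). Hilpda is lowest in all cells at -1.32 and Pgam1 highest at 0.89; the square of Ero1l lies on the other side of 0 from its circle.

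Since the states were spread unevenly over the clusters, the same test was run within the Thy1-led cluster, an alternative chosen after the data were seen. There 15 of 37 rows were called (26.7% of all genes), 14 of them also called in all ILC2-like cells. Hilpda was at 1053, 1098, 1087 and 774.4 CPM in resting and 550.6, 568.5, 685.6 and 634.4 CPM in mitotic cells (-0.71 ± 0.08). Pgam1 (0.60), Tpi1 (0.66), Pgk1 (0.49), Gapdh (0.59) and Pkm (0.31) were called higher there, and P4ha1 (-1.11), Bnip3l (-0.56), Slc2a1 (-0.55) and Hif1a (-0.33) lower. Ero1l turned around and was higher in mitotic cells (0.45 ± 0.09, edgeR adjusted p = 0.000376), and Ldha (0.04) and Bhlhe40 (0.01) lost their call and their sign. Egln3, not called in all ILC2-like cells, was lower (-0.69 ± 0.22, edgeR adjusted p = 0.0255).

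Of 44 other genes of glycolysis and hypoxia tested in all ILC2-like cells, 5 were higher and 14 lower in mitotic cells. Mif, a cytokine and HIF target (0.76 ± 0.06), and Ccng2, a cyclin tied to growth arrest (0.70 ± 0.16), were higher. The largest decreases were those of the lipid droplet protein Plin2 (-1.65 ± 0.10), the pyruvate dehydrogenase kinase Pdk2 (-1.58 ± 0.24) and the glycogen phosphorylase Pygl (-1.39 ± 0.17). Hilpda and Plin2, which both act at lipid droplets, were thus both lower in mitotic cells of the whole class. Within the Thy1-led cluster a value is given for Hilpda alone of the genes named in this paragraph. For the others, the part of the uneven spread of states over clusters was not tested.

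Few cells of the mast-like class were called mitotic, and unnamed cells led by Gzmb and Scin lie outside this class. There were 39 mitotic cells (4 and 20 in the DEX litters, 8 and 7 in the PBS litters) and 1153 resting cells, and 39 cells had 3 to 5 G2/M UMIs. Of 38 rows tested, 5 were called, 2 higher (background 5.17%) and 3 lower (background 5.18%). Pkm was at 280.0, 279.8, 277.5 and 254.3 CPM in resting and 345.2, 514.5, 452.8 and 379.8 CPM in mitotic cells (0.65 ± 0.20, edgeR adjusted p = 0.0143). Pgk1 was at 149.8, 144.7, 146.0 and 123.5 CPM in resting and 236.2, 315.0, 208.3 and 177.3 CPM in mitotic cells (0.75 ± 0.23, edgeR adjusted p = 0.0147). Both enzymes were higher in the mitotic cells of all 4 litters and were also higher in mitotic ILC2-like cells. Eno2, the enolase that marked mast-like cells, fell from 106.8, 81.7, 86.0 and 85.1 CPM to 36.3, 36.8, 18.1 and 0 CPM (-1.81 ± 0.41, edgeR adjusted p = 0.000317), on 2, 7, 2 and 0 mitotic UMIs. Slc2a3 had 1, 2, 1 and 0 mitotic UMIs against 89, 72, 58 and 68 resting UMIs (-1.97 ± 0.64, edgeR adjusted p = 0.0259). Ndrg1 had 4, 0, 1 and 0 mitotic UMIs against 103, 102, 107 and 86 (-2.13 ± 0.56, edgeR adjusted p = 0.00289), and its 4 UMIs in DEX-1 came to a higher CPM than in resting cells of that litter. Medians over litters in ILC2-like and mast-like cells were 1005 and 274.3 CPM for Pkm and 397.4 and 143.8 CPM for Pgk1. They were 2.688 and 77.94 CPM for Eno2, 6.144 and 29.79 CPM for Slc2a3 and 4.875 and 50.22 CPM for Ndrg1. By sign, all 5 changes thus ran toward the ILC2-like level. Doublets within a litter could not be seen, and a part of mixed or misnamed cells in these calls was not tested. Without DEX-2, which held 20 of the 39 mitotic cells, 1 row was called (Eno2), and without PBS-1, 2 were (Eno2 and Pgk1). Of 45 other pathway genes, Mif (0.92 ± 0.19, edgeR adjusted p = 3.92e-05) was higher, and Cited2, an inhibitor of HIF (-1.41 ± 0.21, edgeR adjusted p = 3.45e-09), and Hif3a (-2.21 ± 0.71, edgeR adjusted p = 0.0237) were lower.

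The clusters of mast-like cells held unequal shares of the states as well. The Cma1-led cluster had 29 of the 39 mitotic but 400 of the 1153 resting cells. Within it 2 of 26 rows were called, Pkm higher (0.85) and Aldoa lower (-0.83), against 424 of 4605 genes in all. When mast-like, basophil-like and the unnamed cells led by Gzmb and Scin were pooled, 25 of 42 rows were called, all 5 among them, at a background of 44.2%. Both sets of cells were chosen after the data were seen.

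The mitotic difference was compared between the classes by an interaction. Of 10233 genes 1.86% were called, and of 44 listed rows 1 was, Pgam1, whose mast-like minus ILC2-like difference was -0.68 ± 0.19 (edgeR adjusted p = 0.0417). In mast-like cells Pgam1 was at 291.1, 223.9, 268.3 and 217.0 CPM in resting and 272.5, 367.5, 317.0 and 189.9 CPM in mitotic cells, up in 2 of 4 litters, on 15, 70, 35 and 15 mitotic UMIs. In the pooled mast-like, basophil-like and Gzmb and Scin-led cells it was higher in the mitotic cells of all 4 litters, at 283.5, 218.8, 241.0 and 209.2 CPM in resting and 373.2, 370.2, 344.1 and 240.3 CPM in mitotic cells (0.48 ± 0.09, edgeR adjusted p = 0.000354). It was no longer called without DEX-1, without PBS-1 or without PBS-2. For Hilpda the difference was 1.52 (edgeR adjusted p = 0.0803).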

How the data were processed

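The authors sorted, hashtagged and sequenced fetal lung cells with a 10x 5′ kit, and the deposited matrix holds raw UMI counts per gene and barcode, made by the authors with Cell Ranger 7.0.0 (matrix header) on mm10, and hashtag counts of the same barcodes. No other normalization was applied to the deposited counts. Of 10648 barcodes, those with under 200 genes (13) or over 5% mitochondrial UMIs (231) were left out, which kept 10409. HTODemux in Seurat 5.3.0 (quantile 0.99) assigned hashtags to litters and left out 736 doublets and 2405 negative cells. Doublets within a litter could not be seen. Summed singlet UMIs were 18665955 to 23660294 per litter, 3817622 to 5211430 in ILC2-like and 3526663 to 4514189 in mast-like cells.

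Cells were clustered with scanpy 1.11.5 (2000 variable genes, 20 components, Leiden resolution 0.5) without the genes described here, the other pathway genes or the cell cycle genes. A cluster was named where at least 3 markers of a type were each in 25% of its cells and their mean was at least 30%, with the next type at no more than 60% of it. The thresholds for names were chosen once the clusters had been looked at, and names rebuilt this way may differ from those of the study. UMI counts were summed per litter and class and tested two-sided with edgeR 4.0.16 (quasi-likelihood, TMM scaling, filterByExpr) with Benjamini-Hochberg adjustment and a threshold of 0.05. SE is the log2 fold change over the root of F. The study compared single cells, but cells are not replicates, so litters were compared. Mitotic cells had 4 or more G2/M UMIs after thinning to 2000 UMIs, resting cells 0 G2/M and at most 1 S phase UMI, and litter was a block in those fits and in the interactions. The methods of the study give 2 mothers per treatment and the hashtag of each, while 1 legend gives 1 mother, and the methods were followed. P-values rest only on these litters, on the spread between them or, with litter as a block, on how the change varies over litters. The test draws the spread of each gene toward that of other genes. In the mitotic fit of mast-like cells a gene's own litter spread had almost no weight. Intervals and limits for a count of 0 (3 counts) cover counting error only.

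The genes and lists were chosen with earlier results of these data known, and the marker and pathway lists were taken over from that work or written beside it. Litter values are given for genes called between treatments, for up to 10 per class with the largest change among those called between mitotic and resting cells, for genes called in an interaction and for examples of each role. Other pathway genes are named only where called, at most 5 a comparison. Alternatives were RLE size factors, DESeq2 1.42.0, limma-voom 3.58.1, other count filters, thinning, other cell sets and limits, a replicate block and leaving out each litter. The scripts were tested on simulated data. Promoters are from RefSeq (GRCm38.p6), for 40 of 46 symbols.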

Additional observations from a re-analysis of the deposited data

Results flagged for a closer look

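Pgam1, the phosphoglycerate mutase, was flagged because the change between mitotic and resting cells differed between ILC2-like and mast-like cells by an interaction test (-0.6783 on the log2 scale, mast-like minus ILC2-like, edgeR adjusted p = 0.0417). In ILC2-like cells it was higher in the mitotic cells of 4 of 4 litters and in mast-like cells of 2 of 4. In mast-like, basophil-like and Gzmb and Scin-led cells pooled, a set chosen after the data were seen, it was higher in all 4 (0.48 ± 0.09, edgeR adjusted p = 0.000354), and the difference of that set from ILC2-like cells was not tested. The call was lost with RLE size factors, DESeq2, limma-voom, no filter on low genes, a minimum count of 50, and without DEX-1, PBS-1 or PBS-2, and it was kept after thinning, with a mitotic limit of 8 UMIs and without DEX-2. The mast-like side rests on 39 mitotic cells.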

How the results depend on the processing

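Of the values of single genes called in a comparison, 360 kept their direction and their side of the threshold under an alternative, 88 kept the direction and lost the call, and 3 changed direction. Of the counts, 111 stayed within 1.5 times the reported value and 28 did not. The 3 changes of direction were all within the Thy1-led ILC2-like cluster, between mitotic and resting cells: Ero1l at 0.4453, Ldha at 0.0419 and Bhlhe40 at 0.0094. For DEX in ILC2-like cells (4 called), the count was 7 without a filter on low genes, 2 after thinning, 2 in resting cells, 2 in the Calca-led and 2 in the Thy1-led cluster, 0 in mitotic cells (each with fewer cells), and 3 to 9 when 1 litter was left out. DESeq2 called 3 and left 8 without an adjusted p. For mitotic ILC2-like cells (22 called) it was 10 by DESeq2 and 11 of 29 tested after thinning, and 18 to 22 with 1 litter left out. For mitotic mast-like cells (5 called) it was 3 without a filter, 0 after thinning, 3 at a mitotic limit of 8, 25 with basophil-like and Gzmb and Scin-led cells added, 2 within the Cma1-led cluster, and 1 to 7 with 1 litter left out. For the mitotic difference between the classes (1 called) it was 0 by DESeq2, 3 by limma-voom, 0 without a filter, 3 at a mitotic limit of 8 and 0 to 4 with 1 litter left out. For DEX in mast-like cells (0 called) it was 1 without a filter, and for DEX in epithelial-like cells 0 to 1 with 1 litter left out. Levels across classes separated for 16 rows at the finer clustering against 26. The cause of these moves was not tested unless stated. Where a litter was left out, the lone litter of its treatment was assumed to vary like the others.

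The litter numbers name mothers in the methods of the study, which do not pair them. Same-numbered litters deviated from their treatment means with a correlation across genes of 0.086 in ILC2-like cells (10230 genes) and 0.111 in mast-like cells (10000 genes). With the number as a replicate block, 7 rows were called for DEX in ILC2-like cells (4% of all genes), with Bhlhe40, Aldoa and Mxi1 added, and 1 in mast-like cells, Pfkp, and 0 in each of the other classes.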
